A study of Mus musculus with 12 samples.

Results

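The BCL2 family decides whether the outer membrane of the mitochondria stays closed or opens to release cytochrome c. Anti-apoptotic proteins (BCL2, BCL-XL from Bcl2l1, A1 from the Bcl2a1 genes and MCL1) hold the effectors BAX and BAK1 in check, and the BH3-only proteins (PUMA from Bbc3, NOXA from Pmaip1, BIM from Bcl2l11, and BID) bind the anti-apoptotic proteins or switch on the effectors. MCL1 and NOXA are short-lived proteins, and in immune and endothelial cells NF-κB signalling is known to raise A1 and BCL-XL.

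The 10 genes Bcl2, Bcl2l1, Bcl2a1b, Mcl1, Bax, Bak1, Bbc3, Pmaip1, Bcl2l11 and Bid were picked by name as members of this family, 4 of them anti-apoptotic, 2 effectors and 4 BH3-only. They were followed in cerebral vessels among 54119 genes summed from the deposited transcript estimates. All 10 passed the filter on low counts, as did 19150 genes in all.

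The study asked how soon a systemic inflammation reaches the blood vessels of the brain. Wild type C57BL6 mice, aged 8 to 12 weeks per the study's methods, received 1 intraperitoneal injection of LPS from Escherichia coli O55:B5 (a cell wall component of Gram-negative bacteria) at 10 mg/kg or of endotoxin-free PBS. Mice were perfused with PBS, and vessels were separated from the forebrain, freed of meninges, by a dextran spin and retention on a nylon mesh. The 4 groups, of 3 libraries each, were PBS and vessels taken at LPS 15 min, at LPS 30 min or at LPS 4 h, and every library pooled the vessels of 1 male and 1 female mouse. The sources used here do not state when after injection the PBS mice were killed. Full-length cDNA was made from low-input RNA and sequenced as read pairs.

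Levels are given as CPM (counts scaled to a common library total) after scaling by TMM factors, which set most genes level between libraries, and comparisons between genes use TPM (transcripts scaled to a common total), which takes transcript length into account. A gene was called when edgeR's quasi-likelihood test against a change of up to 0.58 on the log2 scale (1.5-fold) gave p below 0.05 once adjusted by Benjamini and Hochberg across the genes that passed the filter. Libraries held 18155331 to 25708408 joined fragments. The fragments per member and library ran from 17.0 for Bcl2a1b in a PBS library to 15897 for Mcl1 in an LPS 30 min library, so the precision differed between members.

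In these vessels more members were called at each later time. At 15 min Bcl2l1 and Pmaip1 were called higher than in PBS, by 1.74-fold and 2.28-fold, while Mcl1 was 1.54-fold higher, without overlap but too close to the fold limit for a call. At 30 min Mcl1 (2.75-fold) and Bcl2a1b (4.04-fold) were called as well. By 4 h Bcl2a1b was 33.3-fold, Pmaip1 14.3-fold, Bid 9.02-fold, Mcl1 3.86-fold, Bcl2l11 2.73-fold and Bak1 1.88-fold higher than in PBS, whereas Bcl2l1 no longer exceeded the 1.5-fold limit. With TMM factors in edgeR no member was called lower than in PBS at any time. None was in DESeq2 either, with its own scaling and the same limit. In edgeR 0 were lower at an unadjusted p below 0.05 against that limit. With no fold limit 1, 1 and 2 members were lower at the 3 times.

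The number of members called was 2 of 10 at 15 min, 4 of 10 at 30 min and 6 of 10 at 4 h, all of them higher. Over all 19150 genes tested, the share called was 4.25%, 4.62% and 33.0% at these times, and the share called higher was 3.35%, 3.80% and 19.1%. The median log2 fold change of the 10 members was 0.25, 0.43 and 1.18, where that of all genes was −0.0021, −0.010 and −0.0098. The LPS libraries did not overlap with the PBS libraries for 7, 8 and 10 members, but this was common among all genes too, at 49.3%, 46.7% and 70.9%. The 3 comparisons with PBS share the same PBS libraries.

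**Figure D1:**
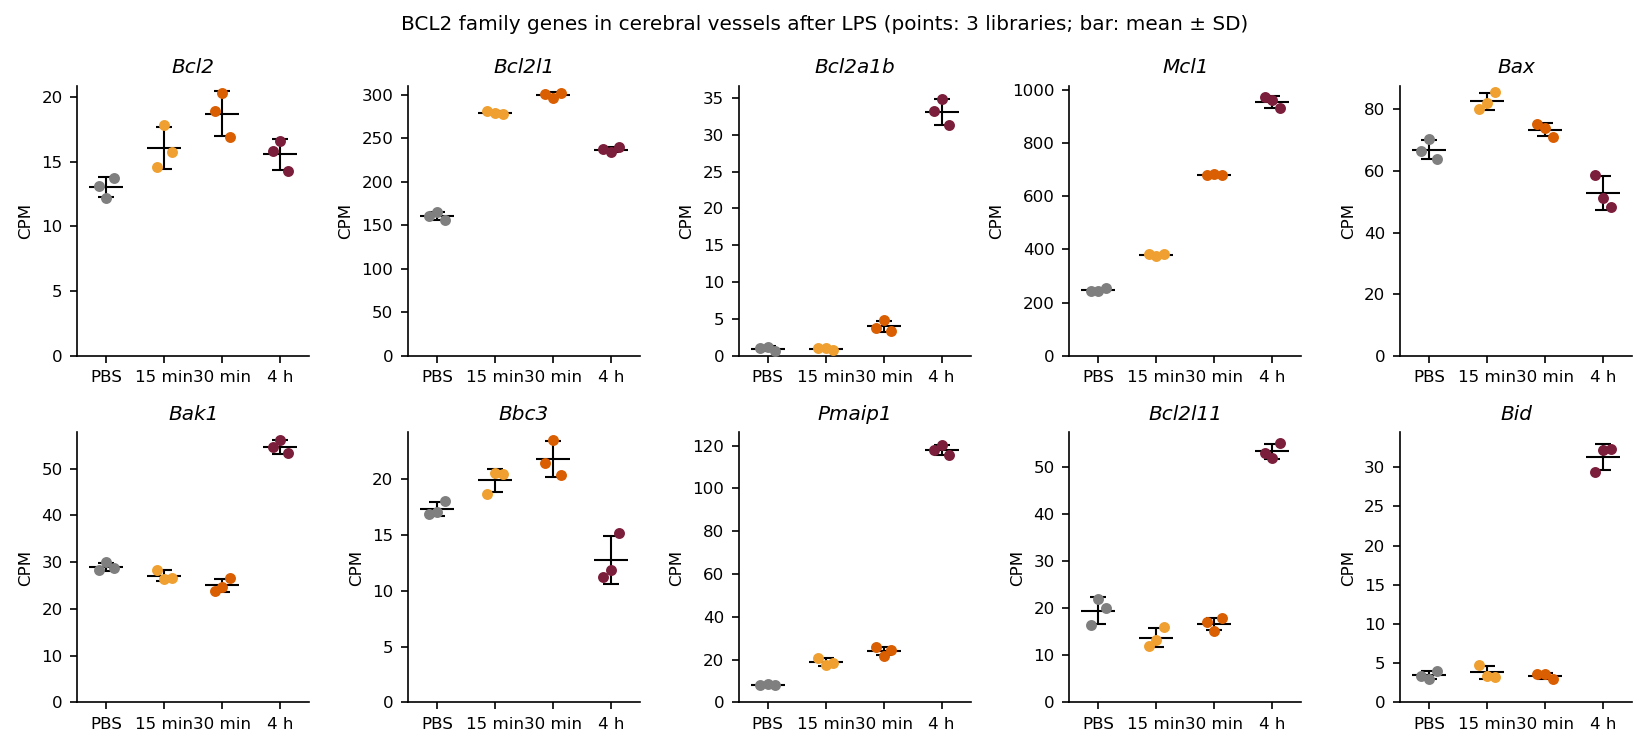
CPM (TMM-scaled) of each member in every library of the 4 groups (points), with the mean ± SD of 3 libraries (bars), on axes that start at 0. On this scale Mcl1 steps up at each time from a mean of 247 in PBS to 955 at 4 h, Bid, Bcl2l11 and Bak1 are high at 4 h alone, and Bax and Bbc3 are at their lowest at 4 h.

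Before the values, stretches of the promoters are shown, because 3 near-identical Bcl2a1 genes were called together and 2 other members carry a match to the NF-κB consensus. Each line gives a stretch of 60 bases upstream of a RefSeq transcription start on GRCm38.p6, 5′ to 3′ on the strand of the gene. The match to a motif is in capitals. The stretches do not adjoin the start: they begin 141 to 250 bases before it and end 82 to 191 bases before it.
Bcl2a1b, chr9:89199082-89199141, plus strand: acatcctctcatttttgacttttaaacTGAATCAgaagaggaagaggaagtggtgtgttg
Bcl2a1a, chr9:88956773-88956832, plus strand: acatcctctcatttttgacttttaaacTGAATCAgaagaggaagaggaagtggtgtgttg
Bcl2a1d, chr9:88731932-88731991, minus strand: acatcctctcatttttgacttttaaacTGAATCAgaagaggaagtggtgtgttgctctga
Bcl2l1, chr2:152830908-152830967, minus strand: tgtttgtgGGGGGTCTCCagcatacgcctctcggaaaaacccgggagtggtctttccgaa
Bbc3, chr7:16309421-16309480, plus strand: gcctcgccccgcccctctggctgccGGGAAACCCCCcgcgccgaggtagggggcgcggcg

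The capitals in the 3 Bcl2a1 lines mark a match to TGANTCA, a loose form of the AP-1 element that allows any base in the middle. The middle base was A in these lines. The pattern therefore matches on both strands, though the letters TGAATCA do not read the same on both. It lay 164 bases before the start of Bcl2a1b, 120 before that of Bcl2a1a and 114 before that of Bcl2a1d. The Bcl2a1a stretch was identical to that of Bcl2a1b at 60 of 60 bases, and the Bcl2a1d stretch, compared base by base without gaps, at 48 of 60. The capitals in the Bcl2l1 and Bbc3 lines mark the NF-κB decamer consensus, in Bbc3 as overlapping matches on both strands. Bcl2l1 and Bbc3 each have 3 RefSeq windows, and 1 of the 3 held the match.

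Windows of 300 bases, from 250 before to 50 after the start, were available for 9 of the 10 members, 14 windows in all. Among 32851 such windows of the genome 4.51% held the NF-κB consensus and 7.81% held TGANTCA on either strand. The members' windows held no TTCNNNGAA (the GAS element, in 8.30% of all windows), no TGACGTCA (the CRE, in 1.79%) and no match to the ISRE (in 3.44%). These matches describe the letters alone. Bcl2l1 was called at 15 min and 30 min, while Bbc3, with a match to the same consensus, was not called against PBS at any time.

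Among the anti-apoptotic genes, Mcl1 (ENSMUSG00000038612, chromosome 3, 95658788 to 95663176) had the highest TPM of the family from 30 min on. MCL1 is the family member whose loss is lethal to many cell types. It stood at 244, 244 and 254 CPM in the 3 PBS libraries. The LPS 15 min libraries held 381, 376 and 383 CPM and the LPS 30 min libraries 678, 684 and 678. At 4 h it reached 974, 959.7 and 931 CPM.

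No Mcl1 value of one group reached into another, and on this TMM scale each later group was higher. Between 30 min and 4 h that order rests on the scaling: the log2 difference was 0.49 (SE 0.024, edgeR adjusted p = 1.00 against the fold limit), it was −0.049 with library size as the only scaling, and the TPM were 269 to 274 at 30 min and 243 to 260.5 at 4 h. Its rise at 15 min, 0.62 on the log2 scale (SE 0.024), lay just past the fold limit and was not called (edgeR adjusted p = 0.263), although it differed from no change (adjusted p = 2.44e-15 with no fold limit). It was called at 30 min (log2 1.46, SE 0.024, edgeR adjusted p = 8.96e-20) and at 4 h (log2 1.95, SE 0.025, edgeR adjusted p = 4.47e-24). The step from 15 min to 30 min was called on its own (log2 0.84, SE 0.024, edgeR adjusted p = 2.11e-09), and over all genes 4.76% were called in that comparison. Practically all Mcl1 fragments belonged to 1 protein coding transcript, Mcl1-201, with 99.986% or more in every library.

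Bcl2l1 (ENSMUSG00000007659, chromosome 2, 152780668 to 152831728) encodes BCL-XL, a survival protein of many cell types. It was the only anti-apoptotic gene called at 15 min. PBS libraries held 161, 166 and 156 CPM, against 281, 279.5 and 278 at 15 min. The LPS 30 min libraries held 301, 297 and 302 CPM, and the LPS 4 h libraries 237, 234 and 239.5.

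On the TMM scale the groups were again fully apart, with the highest values at 30 min and an intermediate level at 4 h. Other scales gave another order: TPM was highest at 15 min (206 to 216) and lower at 4 h (89.1 to 94.1) than in PBS (118 to 125), and with library size as the only scaling the log2 difference was −0.040 from 15 min to 30 min and −0.14 between 4 h and PBS. Bcl2l1 was called at 15 min (log2 0.80, SE 0.027, edgeR adjusted p = 2.40e-07) and LPS 30 min (log2 0.90, SE 0.027, edgeR adjusted p = 2.31e-10). At 4 h the log2 difference to PBS was 0.56 (SE 0.028, edgeR adjusted p = 0.887), and the difference between 4 h and LPS 30 min was −0.34 (adjusted p = 1.00). Its fragments were split between the transcripts Bcl2l1-201 (53.2% in PBS, 48.1% at 4 h) and Bcl2l1-202 (41.7% and 47.8%), both annotated as protein coding.

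Bcl2a1b (ENSMUSG00000089929, chromosome 9, 89199209 to 89207827) encodes a form of A1, a small BCL2 protein best known from activated leukocytes and stimulated endothelium. In PBS it was scarce, at 1.05, 1.25 and 0.649 CPM. In the LPS 15 min libraries it remained at 1.02, 1.02 and 0.868 CPM. The LPS 30 min libraries held 3.81, 4.82 and 3.40 CPM, and the LPS 4 h libraries 33.2, 34.8 and 31.3 CPM.

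The LPS 30 min values all lay above the PBS and LPS 15 min values, and the LPS 4 h values far above all others. Bcl2a1b was called at 30 min (log2 2.01, SE 0.198, edgeR adjusted p = 1.62e-06) and at 4 h (log2 5.06, SE 0.18, edgeR adjusted p = 8.75e-17), with no call at 15 min (log2 −0.033, SE 0.24, adjusted p = 1.00). Both later steps were called as well: 4.13-fold from 15 min to 30 min and 8.24-fold from 30 min to 4 h, a comparison in which 28.9% of all genes were called. Its TPM rose from 2.80 ± 0.86 (SD, n = 3) in PBS, among the 3 lowest members, to the fourth highest at 4 h, 51.6 ± 2.6. That place is of the single feature, with its copies Bcl2a1d (21.6 to 25.8 TPM at 4 h) and Bcl2a1a (7.89 to 12.5) counted apart.

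The count of Bcl2a1b cannot be cleanly separated from its copies. Of the 31-base words in the Bcl2a1b transcript 73.3% also occurred in another Bcl2a1 copy, and the share was 79.6% for Bcl2a1a and 89.1% for Bcl2a1d. In PBS the Bcl2a1b feature took 74.8% to 80.9% of the fragments given to the copies, and at 4 h 56.1% to 63.2%. Bcl2a1a was at 0.0382 to 0.169 CPM in PBS and 5.13 to 8.06 at 4 h, and Bcl2a1d at 0.115 to 0.262 and 15.2 to 17.9. Bcl2a1c was listed with no fragment in any of the 12 libraries.

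Summed over the copies, which removes the split, the Bcl2a1 genes held 1.42, 1.55 and 0.802 CPM in PBS and 1.19, 1.27 and 1.55 at 15 min. The sum was 5.33, 6.93 and 5.90 CPM at 30 min and 57.2, 55.2 and 55.8 at 4 h. Values at 30 min and LPS 4 h did not overlap with any earlier group, and the summed fold against PBS was 4.75 (edgeR adjusted p = 2.04e-08) and 44.0 (edgeR adjusted p = 5.18e-19).

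Markers of neutrophils and some markers of monocytes moved with the late step of Bcl2a1b. Of 11 neutrophil markers 8 were tested, and all 8 were called higher at 4 h. Their sum was 7.29 to 9.62 CPM in PBS, 5.46 to 8.07 at 15 min, 9.02 to 10.8 at 30 min and 234 to 236 at 4 h. Ly6g, Mpo and Elane were under the filter and had no fragment in any PBS library. At 4 h Ly6g was at 0.137 to 0.599 CPM, Mpo at 0.0666 to 0.154 and Elane at 0 to 0.154. Of 5 monocyte markers 4 were called higher at 4 h, among them Chil3, from 0.135 to 0.344 CPM in PBS up to 18.2 to 21.6 CPM. The 4 also include Fn1 and Ly6c2, which are less specific, as given below. Ccr2 was not among them, at 2.87 to 3.05 CPM in PBS and 2.66 to 5.19 at 4 h. The part of these leukocyte markers in the level of Bcl2a1b at 4 h was not tested. At 30 min, where Bcl2a1b was 4.04-fold higher, none of the 8 neutrophil markers was called, and with no fold limit 3 of them were higher at an unadjusted p below 0.05. Other leukocyte markers were called at that time: the monocyte marker Ly6c2, at 34.9 to 43.9 CPM in PBS and 66.7 to 75.1 at 30 min, and the perivascular macrophage marker Lyve1, at 5.67 to 7.10 and 14.5 to 15.5 CPM. Ly6c2 is a close copy of the endothelial marker Ly6c1, so its level is uncertain where reads are shared. The summed monocyte markers were at 1331 to 1370.4 CPM in PBS and 1334 to 1373.5 at 30 min. Most of that sum was Fn1, at 1283 to 1329 and 1266 to 1298 CPM, so it says little of the other monocyte markers. Of these, Ccr2 was lower, at 2.87 to 3.05 CPM in PBS and 1.03 to 1.73 at 30 min, and Plac8 and Chil3 overlapped with PBS. The 6 perivascular macrophage markers were at 128 to 137 CPM in PBS and 157 to 166 at 30 min. With no fold limit 5 of them were higher at 30 min at an unadjusted p below 0.05. Their part in the level of Bcl2a1b at 30 min was not tested.

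**Figure D2:**
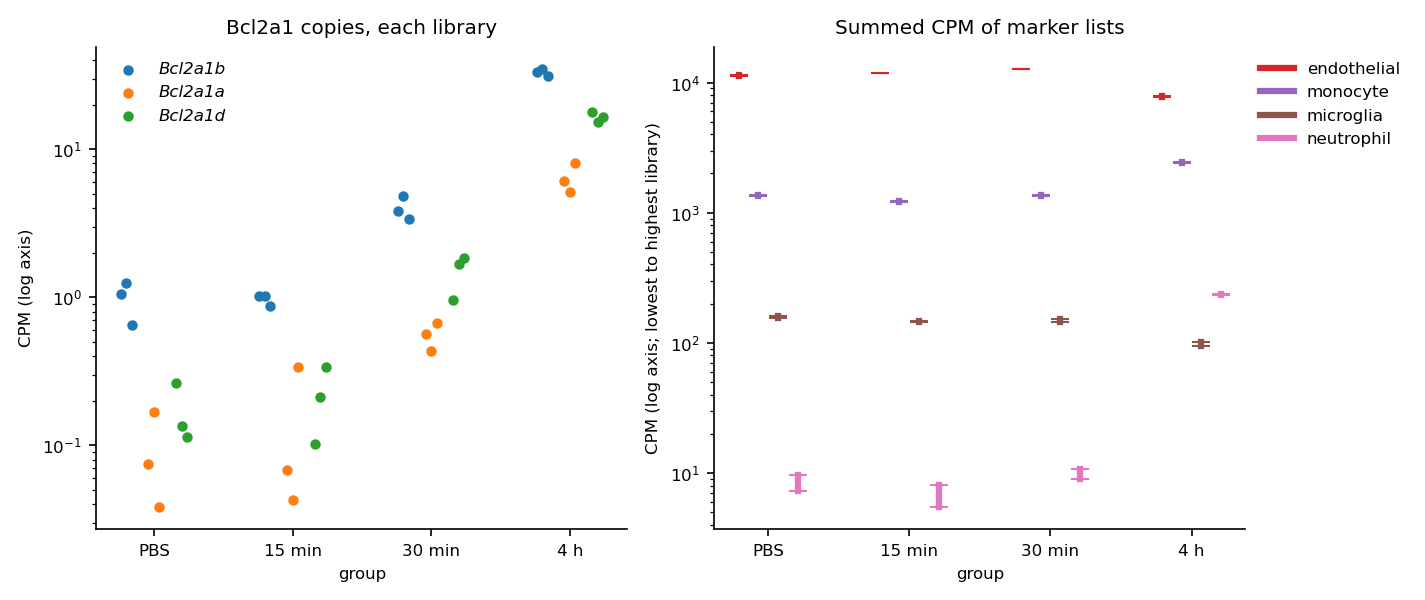
Left, CPM of 3 Bcl2a1 copies in each library on a log axis. Right, the lowest to highest library sum of CPM over 4 marker lists in each group on a log axis. Fn1, at 1283 to 1329 CPM in PBS, makes up most of the monocyte sum. The 3 copies are each above their PBS values at 30 min, when the neutrophil sum is 9.02 to 10.8 CPM against 7.29 to 9.62 in PBS. At 4 h copies and neutrophil markers are both high.

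Bcl2 itself (ENSMUSG00000057329, chromosome 1, 106538178 to 106714274), the founding member of the family, was scarce and was not called at any time. Its levels were 13.1, 12.2 and 13.7 CPM in PBS and 14.6, 17.8 and 15.7 CPM at 15 min. At 30 min they were 18.9, 20.3 and 16.9 CPM and at 4 h 15.8, 16.6 and 14.3 CPM. On the TMM scale all LPS libraries lay above all PBS libraries, and with library size as the only scaling the difference at 4 h turned to −0.45. The log2 differences of 0.30, 0.52 and 0.26 (SE 0.095, 0.095 and 0.10) stayed within the fold limit, with an edgeR adjusted p of 1.00 at each time.

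The effectors went different ways at 4 h. Bax (ENSMUSG00000003873, chromosome 7, 45461697 to 45466898), which moves from the cytosol to mitochondria when activated, was at 66.6, 70.2 and 63.9 CPM in PBS and 80.0, 81.9 and 85.6 at 15 min. It was at 75.1, 74.0 and 71.1 CPM at 30 min and at 58.8, 51.1 and 48.2 at 4 h. The LPS 4 h libraries were below every other library and the LPS 15 min libraries above every other. None of the log2 differences to PBS (0.30, 0.13 and −0.35, SE 0.052, 0.053 and 0.058) passed the fold limit.

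Bak1 (ENSMUSG00000057789, chromosome 17, 27019810 to 27029009), the effector that resides in the mitochondrial membrane, was at 28.3, 30.0 and 28.8 CPM in PBS and 28.4, 26.5 and 26.5 at 15 min. The LPS 30 min libraries held 23.9, 24.6 and 26.6 CPM, all below PBS, and the LPS 4 h libraries 54.6, 56.1 and 53.2 CPM, all above. The difference at 4 h was called (log2 0.91, SE 0.058, edgeR adjusted p = 3.68e-06), as was that from 30 min (log2 1.13, SE 0.059, edgeR adjusted p = 3.51e-09).

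The Bak1 call rests on the scaling. Its fragments numbered 755 to 888 in the PBS libraries and 708 to 842 in the LPS 4 h libraries, and its TPM was 22.5 ± 1.0 and 22.6 ± 0.64 (SD, n = 3). With library size as the only scaling the log2 difference was 0.21 (edgeR adjusted p = 1.00), and with protein coding transcripts alone it was 0.89 (adjusted p = 0.0595). From 30 min to 4 h the call was likewise lost with library size as the only scaling (log2 0.59, edgeR adjusted p = 0.354). A transcript annotated as subject to nonsense-mediated decay, Bak1-201, held 26.3% of the Bak1 fragments in PBS and 30.1% at 4 h.

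The make-up of the libraries differed between the groups. The TMM factors had group means of 1.17 (PBS), 1.15 (15 min), 1.04 (30 min) and 0.717 (4 h), and without them the median log2 fold change of all genes at 4 h was −0.71 and at 30 min −0.17. Of all genes called, 58.0% were higher at 4 h with the factors and 18.2% without them, and at 30 min 82.4% and 60.8%. Without the factors the median from 30 min to 4 h was −0.58, and the share of calls that were higher was 21.7% in place of 58.8%. From 15 min to 30 min that median was −0.14 and the share 37.1% in place of 58.2%. Mitochondrially encoded genes took 6.36% to 6.52% of the fragments in PBS and 9.23% to 9.49% at 4 h. Without the factors Bcl2 (−0.45) and Bcl2l1 (−0.14) were lower than PBS at 4 h rather than higher, and Bax at 30 min turned to −0.032. The calls of Bcl2a1b (4.35), Mcl1 (1.24), Pmaip1 (3.13), Bid (2.47) and Bcl2l11 (0.74) at 4 h held on that scale, while Bax (−1.05, edgeR adjusted p = 1.10e-08) and Bbc3 (−1.14, edgeR adjusted p = 3.22e-06) were then called lower. From 30 min to 4 h Bcl2 (−0.81, edgeR adjusted p = 0.0107), Bcl2l1 (−0.88, edgeR adjusted p = 6.22e-11) and Bax (−1.02, edgeR adjusted p = 4.98e-08) were called lower on that scale too.

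**Figure D3:**
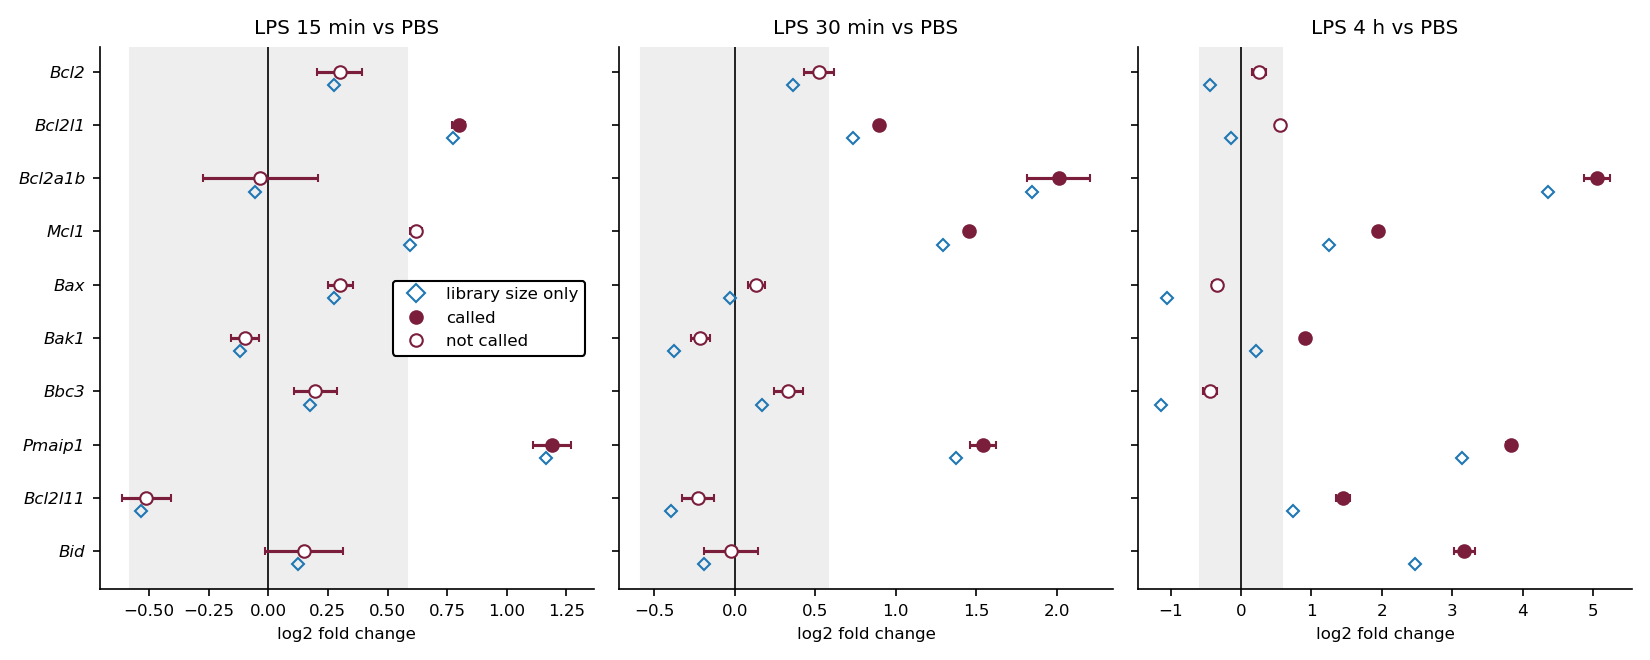
Log2 fold change of each member against PBS at the 3 times, with its SE (circles, filled where called, open where not) and the value with library size as the only scaling (diamonds). The grey band spans the fold limit of 0.58 on either side of 0. At 4 h the diamonds lie to the left of the circles, so Bak1 moves from 0.91 to 0.21 and Bcl2l1 from 0.56 to −0.14, while Bcl2a1b, Pmaip1 and Bid stay far to the right.

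Of the BH3-only genes, Pmaip1 (ENSMUSG00000024521, chromosome 18, 66458533 to 66465565) responded first. NOXA, its product, binds MCL1 preferentially. Its levels were 8.05, 8.40 and 8.28 CPM in PBS, 20.8, 17.2 and 18.3 CPM at 15 min and 25.8, 21.8 and 24.5 CPM at 30 min. At 4 h they were 118, 120.4 and 115 CPM.

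Every Pmaip1 value after LPS exceeded every PBS value. The LPS 4 h libraries, with 1532 to 1808 fragments, varied by 2.11% (coefficient of variation), no more than counting fragments alone would give. The rise was called at 15 min (log2 1.19, SE 0.081, edgeR adjusted p = 9.66e-07), LPS 30 min (log2 1.54, SE 0.080, edgeR adjusted p = 2.37e-10) and LPS 4 h (log2 3.84, SE 0.072, edgeR adjusted p = 6.26e-22). Between 30 min and LPS 4 h the rise was 4.91-fold (edgeR adjusted p = 1.40e-17). Between 92.6% and 100% of its fragments came from the transcript Pmaip1-201 in all 12 libraries.

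Bid (ENSMUSG00000004446, chromosome 6, 120891930 to 120916853), the link from death receptors and caspase-8 to mitochondria, changed at 4 h alone. It was at 3.41, 2.97 and 4.05 CPM in PBS, 4.82, 3.36 and 3.28 CPM at 15 min and 3.60, 3.62 and 2.99 CPM at 30 min. At 4 h it stood at 29.4, 32.2 and 32.3 CPM. The first 3 groups overlapped, and the LPS 4 h libraries were well clear of them (log2 3.17, SE 0.15, edgeR adjusted p = 6.86e-14).

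The split of the Bid fragments between transcripts varied widely in PBS, and its ranges in PBS and at 4 h overlapped. No test of the split was run. The protein coding transcript Bid-201 took 8.65% to 100% of them in the PBS libraries, where each library had 88.0 to 106 fragments, and 85.7% to 99.2% at 4 h. Most of the rest in PBS went to Bid-204, annotated as subject to nonsense-mediated decay (49.1% over the 3 PBS libraries). With protein coding transcripts alone the log2 rise at 4 h was 4.15, a value that rests on this split.

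Bcl2l11 (ENSMUSG00000027381, chromosome 2, 128126038 to 128162547) encodes BIM, which binds all anti-apoptotic members. It was at 16.5, 22.0 and 20.0 CPM in PBS, 12.04, 13.2 and 15.9 CPM at 15 min and 17.0, 15.1 and 17.8 CPM at 30 min. The LPS 15 min libraries were all below PBS, without passing the fold limit (log2 −0.51, SE 0.10, edgeR adjusted p = 1.00, and 0.000293 with no fold limit). At 4 h Bcl2l11 stood at 52.8, 51.8 and 55.1 CPM, above all other libraries (log2 1.45, SE 0.094, edgeR adjusted p = 3.01e-09). The size of this rise depended on the scaling. With library size as the only scaling it was 0.74 (edgeR adjusted p = 0.0257), and the TPM were 7.86 to 9.26 in PBS and 9.28 to 11.3 at 4 h. The longest transcript, Bcl2l11-205, held 90.8% to 91.7% of the fragments in each group.

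Bbc3 (ENSMUSG00000002083, chromosome 7, 16308393 to 16318205) encodes PUMA, a p53 target that can bind all anti-apoptotic members. With TMM factors it was the only member called lower in any comparison. Its PBS libraries held 16.9, 17.0 and 18.1 CPM and its LPS 15 min libraries 18.7, 20.5 and 20.4 CPM. The LPS 30 min libraries held 21.5, 23.5 and 20.4 CPM and the LPS 4 h libraries 11.2, 11.9 and 15.2.

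All LPS 4 h libraries were below the others. From 30 min to 4 h Bbc3 fell by 0.77 on the log2 scale (SE 0.0995, edgeR adjusted p = 0.0336). Against PBS it was 0.44 lower on that scale at 4 h, a difference within the fold limit (log2 −0.44, SE 0.10, edgeR adjusted p = 1.00). With library size as the only scaling the fall from 30 min was larger (log2 −1.31, edgeR adjusted p = 1.04e-07). It was lost with an average transcript length offset (log2 −0.44, adjusted p = 0.933), with DESeq2 (log2 −0.75, adjusted p = 0.390), with limma on the deposited normalized values (log2 −0.44, adjusted p = 1.00) and without LPS 4 h replicate 1 (adjusted p = 0.163), LPS 4 h replicate 2 (adjusted p = 0.124) or LPS 30 min replicate 2 (adjusted p = 0.113).

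On the length-corrected scale the order of the family changed with time. In PBS Bax led with 151 ± 3.9 TPM (SD, n = 3), followed by Mcl1 at 122 ± 1.2 and Bcl2l1 at 121 ± 4.0, and these last did not differ beyond their spread. Bbc3 (23.7 ± 4.8) and Bak1 (22.5 ± 1.0) came next and overlapped, then Bcl2l11 (8.33 ± 0.81) and Pmaip1 (5.35 ± 0.34). Bcl2 (2.93), Bid (2.84) and Bcl2a1b (2.80) were indistinguishable at the bottom.

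At 15 min Bcl2l1 was first at 212 ± 5.4 TPM, ahead of Bax (186 ± 6.5) and Mcl1 (186 ± 1.8), which were level. At 30 min Mcl1 took the first place with 272 ± 2.9 TPM, ahead of Bcl2l1 at 182 ± 3.7 and Bax at 137 ± 4.2. It kept that place at 4 h with 252 ± 8.7 TPM. There Bcl2l1 (92.4 ± 2.8) and Bax (63.7 ± 7.1) followed, then Bcl2a1b (51.6 ± 2.6, without its copies) and Pmaip1 (39.7 ± 1.0). Bbc3 (10.2 ± 1.9) and Bcl2l11 (10.1 ± 1.0) were level near the bottom and Bcl2 was last at 1.89 ± 0.18.

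**Figure D4:**
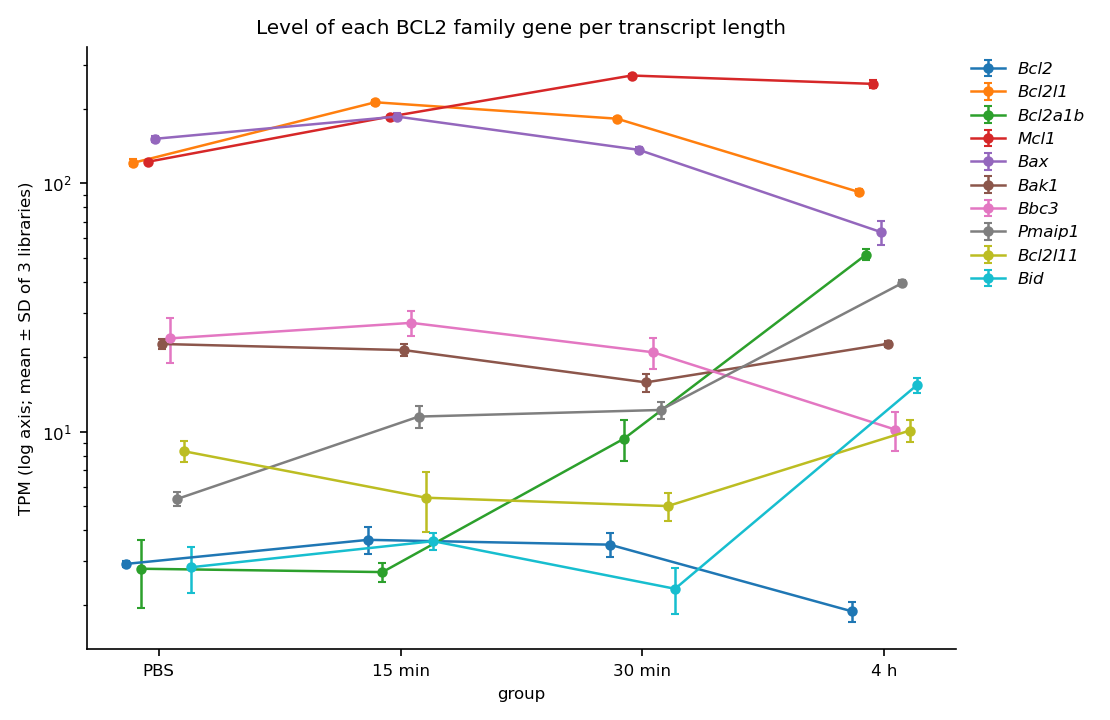
Mean TPM of each member in the 4 groups on a log axis, with the SD of 3 libraries, lines joining the groups of a gene. Bax leads in PBS at 151 TPM and Mcl1 at 4 h at 252 TPM, and Bcl2a1b climbs from among the 3 lowest in PBS to the fourth place at 4 h. The place of Bcl2a1b depends on the split of fragments between its copies, which are not drawn.

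Ratios of TPM within a library do not depend on how libraries are scaled. The 4 ratios were chosen after the values had been seen and are given as a description. An exact permutation test against PBS was run on them. With 3 libraries against 3 it cannot give a p below 0.1, so it cannot decide whether a ratio changed. Mcl1 to Bcl2l1 was 1.02, 0.965 and 1.05 in PBS and 0.874, 0.852 and 0.901 at 15 min. It was 1.48, 1.54 and 1.46 at 30 min and 2.77, 2.83 and 2.59 at 4 h. No group overlapped with another, with the balance on the side of Bcl2l1 at 15 min and of Mcl1 at both later times.

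Bak1 to Bax was 0.154, 0.148 and 0.145 in PBS, 0.124, 0.117 and 0.104 at 15 min and 0.107, 0.109 and 0.132 at 30 min. At 4 h it was 0.324, 0.364 and 0.382, above all other libraries. The shift between the effectors thus did not hang on the scaling on which the Bak1 call depends. Bax remained the more abundant effector transcript in each library.

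Pmaip1 to Mcl1, a sensor and the protein it binds, was 0.0432, 0.0473 and 0.0409 in PBS and 0.0681, 0.0579 and 0.0595 at 15 min. At 30 min it was back at 0.0481, 0.0408 and 0.0460, overlapping with PBS, and at 4 h it was 0.156, 0.158 and 0.159. Bcl2l11 to Bcl2l1 was 0.0770, 0.0627 and 0.0670 in PBS and 0.0210, 0.0214 and 0.0345 at 15 min, without overlap. It was 0.0259, 0.0253 and 0.0312 at 30 min and 0.103, 0.104 and 0.120 at 4 h, where it exceeded every PBS library.

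**Figure D5:**
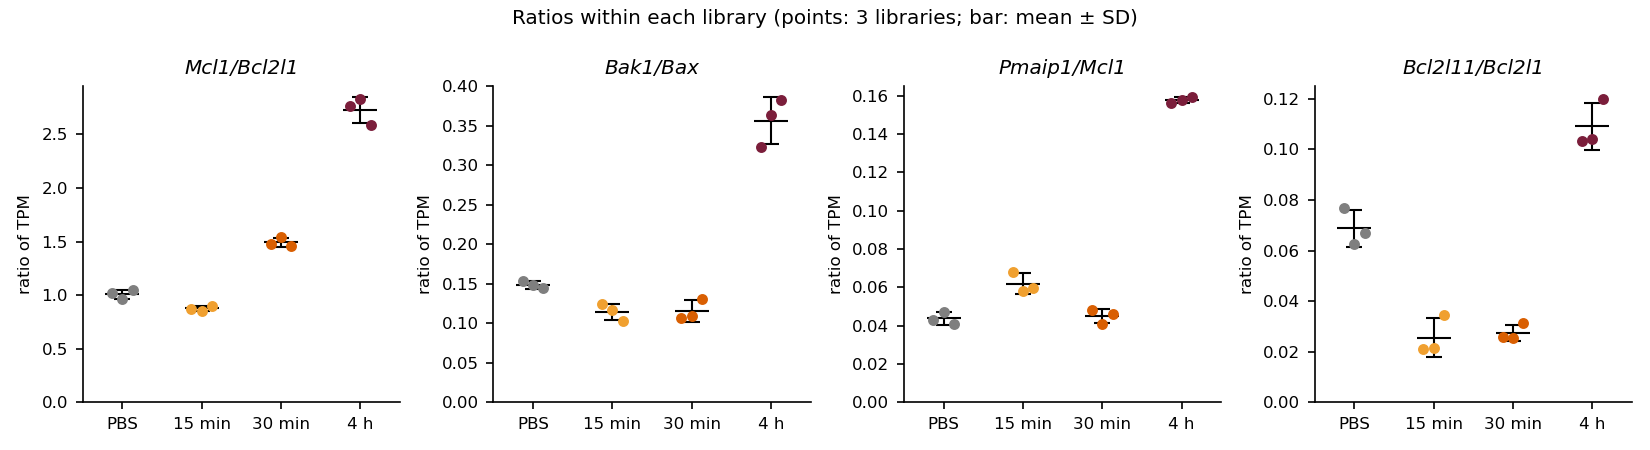
Ratio of TPM within each library (points) in the 4 groups, with the mean ± SD of 3 libraries (bars), on axes that start at 0. Mcl1/Bcl2l1 and Bak1/Bax are highest at 4 h, with means of 2.73 and 0.357 against 1.01 and 0.149 in PBS, and Bcl2l11/Bcl2l1 is lowest at 15 min with a mean of 0.0256.

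Of 16 further genes of the BCL2 type 13 were tested, and Bcl2a1c, Bcl2l10 and Bcl2l14 were under the filter with 0, 9 and 14 fragments over all libraries. None was called at 15 min (2 at an unadjusted p below 0.05), and the copies Bcl2a1a and Bcl2a1d were the only ones at 30 min. At 4 h these copies were higher and Bok, Bik and Bcl2l12 were lower. Bok, an effector-like protein, had a log2 change of −1.68 (SE 0.083, edgeR adjusted p = 5.64e-12) and Bik, a BH3-only protein of the endoplasmic reticulum, one of −1.36 (SE 0.29, edgeR adjusted p = 0.00615). Bcl2l12 had one of −1.98 (SE 0.13, edgeR adjusted p = 2.83e-10). The BH3-only genes Bad (−0.14), Bmf (−0.65) and Hrk (0.0052) and the anti-apoptotic Bcl2l2 (−0.27) were not called.

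Downstream of the mitochondria, none of the 8 genes of the apoptosome and the caspases was called at 15 min or 30 min, and 0 had an unadjusted p below 0.05 against the fold limit. With no fold limit 4 of them were lower at 15 min and 5 lower at 30 min at an unadjusted p below 0.05. At 4 h 4 were higher and 2 lower, with a median log2 change of 0.83. Apaf1, the scaffold of the apoptosome, was higher by 3.19 (SE 0.061, edgeR adjusted p = 1.70e-21) and the initiator Casp8 by 1.66 (SE 0.056, edgeR adjusted p = 2.96e-15). Casp9, the initiator that APAF1 activates, was lower (log2 −1.66, SE 0.094, edgeR adjusted p = 7.25e-11).

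Of 8 genes for mitochondrial proteins and channels linked to release, Endog, a mitochondrial nuclease, was called at 30 min (log2 0.94, SE 0.076, edgeR adjusted p = 0.000294). At 4 h Endog (0.96) and Cycs, the cytochrome c gene (1.14), were called higher and none lower. The median log2 change of this list at 4 h was −0.023.

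The inhibitors of apoptosis (IAPs), which restrain caspases or death receptor signalling, were mostly late. Of 6 genes none was called at 15 min (0 at an unadjusted p below 0.05) and only Birc3 at 30 min (log2 1.24, SE 0.060, edgeR adjusted p = 1.16e-09). At 4 h 4 of 6 were higher, led by Birc3 (log2 4.77, SE 0.053), Birc2 (log2 3.74, SE 0.032) and Birc5 (log2 2.78, SE 0.35), with adjusted p values of 1.14e-26, 1.41e-28 and 3.05e-06 from edgeR. Birc5 is better known as a mitotic gene. Xiap, the direct caspase inhibitor, was not called (log2 0.59, edgeR adjusted p = 0.345).

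Death receptor genes, the pathway that feeds into Bid, were called higher for 1 of 10 at 15 min, 2 at 30 min and 8 at 4 h. Fas, a death receptor, had log2 changes of 0.80, 1.23 and 3.04 at these times and was called at each. Tnfrsf10b, the mouse TRAIL receptor, was called at 30 min (log2 1.49) and 4 h (log2 1.71). At 4 h Cflar, the decoy that blocks caspase-8, was higher by 3.02 (SE 0.031, edgeR adjusted p = 8.03e-27) and Tnfrsf1b, a TNF receptor, by 2.08. Casp8, which cleaves BID, belongs to this list as well. Tradd, an adaptor of the TNF receptor, was the only one called lower (log2 −1.27, SE 0.17, edgeR adjusted p = 0.000208).

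Among 12 regulators linked to BH3-only genes, 1, 3 and 7 were called higher at the 3 times and none lower. Cdkn1a, a classic p53 target, led at each time with log2 changes of 1.02, 2.42 and 4.20. Atf4, a factor of the integrated stress response, was called at 30 min (log2 0.93) and 4 h (log2 2.56), Ddit3, the CHOP gene of the same response, at 30 min (log2 0.76) and 4 h (log2 1.15), and Nupr1, a stress-induced nuclear protein, at 4 h (log2 1.56). Trp53 itself was higher by 0.70 at 4 h (SE 0.054, edgeR adjusted p = 0.0151). Of 8 genes listed under the turnover of MCL1 protein none was called lower. Trib1, a pseudokinase of the ubiquitin system, was called higher at all 3 times (log2 0.77, 1.35 and 3.89). The deubiquitinase Usp13 was called at 15 min (log2 1.24) and the deubiquitinase Usp9x at 4 h (log2 0.82). Whether the products of these genes act on MCL1 in these vessels was not tested.

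The genes most alike to the member with the largest rise at 4 h, Bcl2a1b, by Pearson's r of log2 CPM over the 12 libraries were Ubb (0.996), Kif23 (0.995) and mt-Co1 (0.994). As many as 811 genes exceeded an r of 0.95 with Bcl2a1b, so these are a small sample of one broad pattern. For Bbc3, the member with the largest fall, they were Atp9a (0.981), 2810025M15Rik (0.971) and Slc35a5 (0.965), out of 13 genes past 0.95. The 12 libraries share 4 treatment groups, and the correlations reflect the group means.

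The vessel libraries held the markers of vessel cells at high levels. In PBS the sum of 10 endothelial markers was 11146 to 11459 CPM, of 6 pericyte markers 3534 to 3606, of 6 smooth muscle markers 3414 to 3442 and of 5 fibroblast markers 434 to 458. At 4 h 7 endothelial markers were called lower and 1 higher, and their sum was 7777 to 7825 CPM. At that time 1 pericyte, 2 fibroblast, 4 microglial and 2 lymphocyte markers and no smooth muscle marker were called lower, while at 15 min 3 of 6 smooth muscle markers were. Of 5 oligodendrocyte markers 2 and of 6 neuron markers 1 were lower at 4 h, 2 astrocyte markers were higher and 1 lower, and 3 perivascular macrophage and all 5 erythroid markers were higher. Erythroid markers moved early as well, with 2 of 5 called higher at 15 min and 4 at 30 min, and their sum was 2317 to 2492 CPM in PBS, 3477 to 3618 at 15 min, 4437 to 4663 at 30 min and 6941 to 7306 at 4 h. At 15 min 2 of 6 neuron markers were called higher, with a sum of 507 to 520.0 CPM against 339 to 351 in PBS, and 1 neutrophil marker lower. In bulk RNA, fewer cells of a type and less RNA per cell cannot be told apart, and the part of these shifts in the members' levels was not tested.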

How the data were processed

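RNA of cerebral vessels was measured in 12 libraries of 4 groups, assigned from the sample labels. The authors quantified transcripts with Salmon 1.2.1 on GRCm38.p6 per the labels. The estimated counts deposited by the authors are unnormalized fragments per transcript, the TPM deposited by the authors are scaled for effective length (given in another deposited column) to a constant sum, and the gene table deposited by the authors holds a signal, namely counts normalized with DESeq2. Multi-mapping reads were split by Salmon's model, which bears on the Bcl2a1 copies.

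Of 140948 transcripts 139852 were joined by identifier to the GENCODE M21 annotation of GRCm38, and 0.482% to 0.850% of a library's fragments were left out. Estimated counts were summed to 54119 genes and rounded. No value column was left unmapped (0). In edgeR 4.0.16 under R 4.3.3, filterByExpr (minimum count 10, total 15, share 0.7) kept 19150 genes. TMM factors, glmQLFit over all libraries and glmTreat with a log2 limit of 0.58 were followed by Benjamini-Hochberg adjustment. The common biological coefficient of variation was 0.0524. SE denotes the standard error of the log2 fold change. In data simulated for LPS 4 h against PBS with 18381 genes, 82.0% of 50 genes with a log2 change of 1 were called. Of the genes with 2, 3 or −2, 100% were called, and of 18181 unchanged genes 0. Far fewer genes were changed there than the 6315 called in the real comparison, and no shift in make-up like that at 4 h was simulated. The simulation therefore cannot tell how many calls at 4 h are false.

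The libraries limit precision to 3 values a group. The labels do not say which pools of mice were processed together, so p-values measure the spread between these libraries. For some members that spread was very small, with a coefficient of variation of 0.552% for Mcl1 at LPS 30 min. Whether the p-values also reflect the variation between mice cannot be told from these libraries. Alternatives used RLE factors, library size alone, no filter, no fold limit, an added log2 limit of 1.5, DESeq2 1.42.0, limma 3.58.1 on the normalized table with 1 or 10 added, transcript length offsets, protein coding transcripts, summed copies, fits of 2 groups, a replicate block and leaving out each library. The members, gene lists, marker lists and the 5 promoter motifs were chosen with earlier results of these data known. All members were named whatever their values. From each pathway list the called genes with the largest change were named, up to 3 a comparison, and for the other BCL2 proteins any tested gene. Casp9, Xiap, Tradd, Trp53, Chil3, Ly6c2 and Lyve1 were named after their values were seen, as were the ratios. Some genes counted in the pathway lists are not reported here by name. Promoter sequences are from RefSeq. Tables were made in Python 3.11.15 with pandas 2.3.3, numpy 2.4.6 and scipy 1.17.1, plots with matplotlib 3.10.9.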

Additional observations from a re-analysis of the deposited data

Results flagged for a closer look

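For 8 changes the effect against PBS differed between neighbouring times, by the test of the difference itself (edgeR, against a log2 limit of 0.58). From LPS 15 min to LPS 30 min the effect grew for Bcl2a1b by 2.05 on the log2 scale (adjusted p = 2.21e-06) and for Mcl1 by 0.84 (adjusted p = 2.11e-09). All 3 libraries of the later time lay above the earlier ones for both genes.

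From LPS 30 min to LPS 4 h the effect grew for Bid by 3.20 (adjusted p = 1.03e-13), for Bcl2a1b by 3.04 (adjusted p = 3.03e-13), for Pmaip1 by 2.29 (adjusted p = 1.40e-17), for Bcl2l11 by 1.68 (adjusted p = 1.12e-10) and for Bak1 by 1.13 (adjusted p = 3.51e-09). For Bak1 it was 0.59 with library size as the only scaling (adjusted p = 0.354), so that this call was lost. Bbc3 changed by −0.77 (adjusted p = 0.0336), a call that was lost with a transcript length offset, with DESeq2 and with limma on the normalized table, and was larger with library size as the only scaling (−1.31, adjusted p = 1.04e-07).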

How the results depend on the processing

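Of 1000 values of single members under the alternatives, 935 kept their direction and side of the threshold, 24 newly passed it, 20 no longer did and 21 changed sign. None of the 21 was past the threshold. With no fold limit the members called numbered 6, 7 and 10 against PBS at LPS 15 min, LPS 30 min and LPS 4 h, 6 from LPS 15 min to LPS 30 min and 10 from there to LPS 4 h. With the added log2 limit of 1.5 they were 0 at LPS 15 min, 2 at LPS 30 min, 4 at LPS 4 h, 1 from LPS 15 min to LPS 30 min and 4 from there to LPS 4 h. With library size only they were 2, 4, 7, 2 and 8, where 788, 893, 10523, 1050 and 8915 of all 19150 genes were called. The share of all genes called with no fold limit or with the added limit is not given here. Those counts therefore cannot set the members apart from other genes.

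The sign changes were as follows. At LPS 15 min against PBS, Bcl2a1b was 0.071 with its copies summed and 0.0087, 0.19 and 0.041 without PBS replicate 1, PBS replicate 2 or LPS 15 min replicate 3, within a range of −0.25 to 0.19 over the libraries left out, and Bid was −0.061 without LPS 15 min replicate 1 (range −0.061 to 0.27). At LPS 30 min against PBS, Bax was −0.032 with library size only, and Bid was 0.00082 with the length offset, 0.18 with protein coding transcripts, and 0.097 and 0.060 without PBS or LPS 30 min replicate 3 (range −0.13 to 0.097). At LPS 4 h, Bcl2 (−0.45) and Bcl2l1 (−0.14) changed sign with library size only. From LPS 15 min to LPS 30 min, Bcl2l1 (−0.040) and Bbc3 (−0.0058) did so with library size only, Bbc3 also with the length offset (−0.10) and limma with 1 added (−0.10 with and without the filter) or 10 added (−0.098), Bak1 (0.13) with protein coding transcripts and Bid (0.036, range −0.28 to 0.036) without LPS 15 min replicate 1. From LPS 30 min to LPS 4 h, Mcl1 was −0.049 with library size only.

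Without each library in turn the count of members called stayed the same or, from LPS 30 min to LPS 4 h, was 5 to 6. Same-numbered libraries deviated together at r of −0.049 to 0.068 in 18 pairs, none over 0.1. Over all genes there was thus no strong shared deviation. These values cannot tell whether same-numbered pools were processed together, since a small or gene-specific effect would not show. With the replicate number as a block the members called were 2, 4, 6, 2 and 6 in the 5 comparisons, as without it.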
